A study of Homo sapiens with 6 samples.

Results

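The 81 cadherin and protocadherin genes described here were chosen by a rule on gene names: protein-coding genes whose symbol starts with CDH and a digit or with PCDH, with FAT1 to FAT4, DCHS1, DCHS2 and CELSR1 to CELSR3, leaving out PCDH11Y. They are 81 of 22481 genes in the count table, of which 16114 were protein-coding. They comprise 5 classical type I and 11 classical type II cadherins, 3 other CDH genes, 11 protocadherins outside the gene clusters, 42 clustered protocadherins, 6 FAT and DCHS genes and 3 CELSR genes.

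Cadherins are calcium-dependent adhesion proteins of the cell surface whose extracellular repeats bind cadherins on the neighbouring cell. The classical cadherins hold cells together at adherens junctions, where their tails bind p120-catenin and beta-catenin and, through alpha-catenin, the actin cytoskeleton. Protocadherins have other tails and are best known for self-recognition between neurons, while the giant FAT, DCHS and CELSR cadherins orient cells within a sheet. In bone, CDH2 and CDH11 are the main cadherins of the osteoblast lineage, and a high CDH2 with no CDH1 is the usual state of mesenchymal cells.

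The study grew 143B cells, an established human osteosarcoma line, in the 6 wells of 1 plate for 24 h. Celastrol, a triterpene from Tripterygium wilfordii, was then added to 3 wells for 24 h, and the other 3 wells were kept as controls for the same time. Neither the dose nor any vehicle in the control wells is stated in the labels. Every library comes from 1 well, so p-values measure the spread between wells of 1 plate, which may be technical.

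Library totals ran from 38.89 to 39.45 M counts with celastrol and from 38.41 to 39.41 M in controls, and on the first principal component the groups came closest at celastrol replicate 2 and control replicate 1. The 7 osteoblast and mesenchymal markers, of which 5 were tested, summed to 2953 to 3019 CPM with celastrol and 3654 to 3868 CPM in controls (CPM, counts scaled by the library total). Single genes are given in CPM scaled by TMM, which sets the bulk of genes equal between libraries. VIM, the mesenchymal intermediate filament gene, had 2499, 2588 and 2537 CPM with celastrol and 3559, 3275 and 3400 CPM in controls. RUNX2, the osteoblast transcription factor, had 18.7, 18.6 and 17.3 CPM with celastrol and 30.5, 35.8 and 35.5 CPM in controls. ALPL had 1.79, 1.37 and 0.964 CPM with celastrol and 3.53, 3.29 and 2.52 CPM in controls. COL1A1 went the other way, at 11.3, 13.2 and 14.8 CPM with celastrol and 10.1, 7.56 and 7.19 CPM in controls. SPARC overlapped between groups, at 370, 350 and 376 CPM with celastrol and 304, 373 and 414 CPM in controls. SP7 had at most 6 counts and COL1A2 at most 2. The keratins KRT8 and KRT18 were abundant although KRT19 had at most 2 counts. The 5 epithelial markers summed to 1229 to 1307 CPM with celastrol and 1298 to 1327 CPM in controls, mostly from KRT8 and KRT18. KRT8 had 300, 303 and 317 CPM with celastrol and 359, 365 and 363 CPM in controls. KRT18 overlapped, at 977, 899 and 968 CPM with celastrol and 974, 953 and 959 CPM in controls. CLDN4 had 0.398, 0.354 and 0.33 CPM with celastrol and 1.12, 1.45 and 0.675 CPM in controls. EPCAM went the other way, at 6.67, 7.14 and 6.85 CPM with celastrol and 6.5, 5.71 and 5.92 CPM in controls. The 4 endothelial markers, of which only KDR was tested, summed to 0.486 to 0.823 CPM with celastrol and 1.29 to 1.8 CPM in controls. The 4 neural markers summed to 2.67 to 4.22 CPM with celastrol and 5.56 to 6.56 CPM in controls. Of the leukocyte markers only PTPRC was measured, at 6 counts or fewer, and the others of that list were not analysed here. The part of these markers in the results below was not tested. In a bulk library, fewer cells that make an RNA and less of it per cell cannot be told apart.

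With celastrol, the N-cadherin gene CDH2 rose, while CDH4, CDH11, CDH22, CDH23 and the low-count CDH3 fell. The protocadherin PCDH1 fell 3.44-fold, and the planar polarity cadherins DCHS1, CELSR1, CELSR2, FAT3 and FAT4 fell as well. FAT1, CELSR3, CDH13, CDH24 and CDH6 did not pass the test. Among the clustered protocadherins PCDHB2 was the only gene that passed it, and it was higher with celastrol.

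A gene was counted as expressed when it passed the filter on low counts, which asks for about 0.256 CPM in at least 3 libraries. By that rule 38 of the 81 genes were expressed. A level of at least 1 CPM in every library of either group left 26 of them, and a group mean of at least 0.1 FPKM left 30. Outside the clusters 25 of 39 genes passed, against 13 of 42 in the clusters. Of the 38 tested, the quasi-likelihood test of edgeR, adjusted by Benjamini-Hochberg over all 15387 tested genes, called 2 higher and 11 lower with celastrol at an adjusted p under 0.05. Over all tested genes it called 23.6% higher and 24.8% lower, 48.4% in either direction. Of the 17 genes with a mean of at least 5 CPM, 1 was higher and 8 were lower, where 28.5% of all genes at that level were higher and 27.4% lower. Celastrol libraries lay wholly above controls in 3 of the 38 (28.4% of all tested genes) and wholly below them in 13 (28.6%). The median log2 fold change of celastrol over control was -0.29, against -0.00024 over all tested genes.

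These counts are not evidence on the family as a whole. In 5 genes all 3 libraries of 1 group, but not of the other, reached the filter minimum. CDH3 reached it in 3 control libraries and 0 celastrol libraries, so it entered through the controls alone. PCDH20 and PCDHB12 reached it in 3 control and 2 celastrol libraries, and PCDHAC1 and PCDHB14 in 3 celastrol and 2 control libraries. Without these 5 genes, 2 of 33 were higher (6.06%, against 23.6% of all tested genes) and 10 were lower (30.3%, against 24.8%). The median log2 fold change of the 33 was -0.23. No called gene changed direction under any of 16 alternatives.

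**Figure D1:**
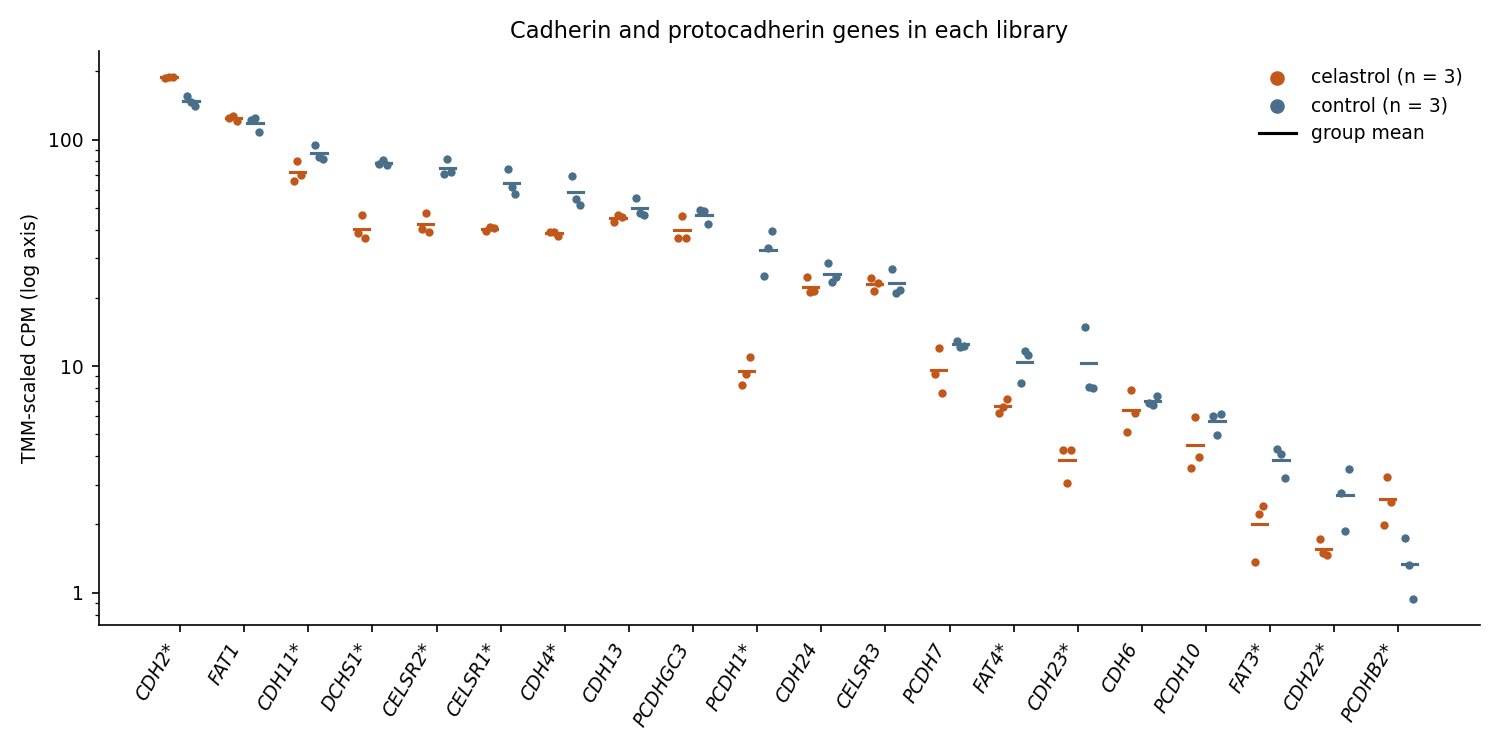
TMM-scaled CPM (log axis) of the cadherin and protocadherin genes with a mean of at least 5 CPM or a call at 1 CPM or more, for celastrol (orange, n = 3) and control (blue, n = 3). Points are libraries, bars are group means, and asterisks mark an adjusted p under 0.05. CDH2 is the most abundant and lies above control in all 3 celastrol libraries, while PCDH1, DCHS1, CELSR1, CELSR2, CDH4 and CDH23 lie below it.

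Of the 5 classical type I cadherins 3 were tested, of which 1 rose (33.3%, against 23.6% of all tested genes) and 2 fell (66.7%, against 24.8%). Of the 2 that fell, CDH3 passed the filter through the control libraries alone, the group where it was high. CDH2 (NCBI gene 1000, chromosome 18, 27932879 to 28177130 on GRCh38.p14) encodes N-cadherin, the adherens junction cadherin of mesenchymal and neural cells. It had 187, 188 and 189 TMM-scaled CPM in the celastrol libraries and 155, 146 and 141 CPM in the control libraries. All celastrol libraries lay above all control libraries and differed from each other by less than the controls did. The log2 fold change was 0.35 ± 0.061 (SE), or 1.28-fold (adjusted p = 0.000117), and the call held in all 16 alternatives.

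CDH4 (gene 1002, chromosome 20, 61252261 to 61940617), which encodes R-cadherin, a close relative of N-cadherin, moved the other way. Its levels were 39.2, 39 and 37.5 CPM with celastrol and 69.1, 54.8 and 51.4 CPM in controls. The groups did not overlap, and control replicate 1 stood highest. CDH4 fell by 0.60 ± 0.098 on the log2 scale (adjusted p = 7.7e-05), also called in every alternative.

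CDH3, which encodes P-cadherin of basal epithelium, had 1, 1 and 0 counts in the celastrol libraries and 17, 15 and 16 counts in the controls. The ratio of the summed counts, 2 with celastrol and 48 in controls, was 0.0402 after scaling to library size (95% interval 0.0047 to 0.153, counting error only; adjusted p = 0.000957, and 0.0718 by limma on log2(FPKM + 1)). Only the control libraries carried CDH3 past the filter, so its entry into the test depended on the group where it was high. On the opposite strand, 11.1% of its exon bases overlap another gene. CDH1, the E-cadherin gene of epithelia, had 0 counts in every celastrol library and 0, 0 and 1 counts in the controls. A 0 in the count table leaves room for up to 3 counts (0.076 to 0.0781 CPM in these libraries), so no difference in CDH1 was detectable at this depth. CDH15, the M-cadherin gene of muscle, had at most 9 counts.

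The sequence upstream of CDH2, the one abundant gene of the family that rose, is shown with that of PCDH1, the abundant one with the largest fold change. Both are the 250 bases before a RefSeq start site, read 5′ to 3′ on the gene's own strand (minus for both), from RefSeq on GRCh38.p14. They span chr18:28177131-28177380 and chr5:141869628-141869877. The CDH2 site is the outer end of the annotated gene, whereas the PCDH1 site lies inside the annotated gene, where the only PCDH1 window of the RefSeq table was placed, and the sequence before the outer end of PCDH1 was not analysed here. Capitals mark CAGGTG, a form of the E-box that SNAI and ZEB repressors are known to bind, searched on both strands after the sequences had been seen.
CDH2: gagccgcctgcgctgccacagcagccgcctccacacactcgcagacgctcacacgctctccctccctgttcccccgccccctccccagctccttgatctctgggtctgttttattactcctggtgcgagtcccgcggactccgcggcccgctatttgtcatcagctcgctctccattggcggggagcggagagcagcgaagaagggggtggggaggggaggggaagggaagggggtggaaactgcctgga
PCDH1: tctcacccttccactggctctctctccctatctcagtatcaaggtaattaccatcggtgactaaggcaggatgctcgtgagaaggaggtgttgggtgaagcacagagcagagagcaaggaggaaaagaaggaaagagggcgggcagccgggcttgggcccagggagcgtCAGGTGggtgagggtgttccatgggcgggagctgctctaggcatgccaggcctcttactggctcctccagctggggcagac
The CDH2 window holds no CAGGTG and the PCDH1 window holds it 81 bases before that inner start site. Of the 61 genes of the family with a promoter window (250 bases before to 50 after the start), 6 held it (9.84%), against 24.1% of 27305 genes with a window.

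Of the 11 classical type II cadherins 4 were tested, 2 fell (50%, against 24.8% of all tested genes) and none rose (23.6% of all tested genes). CDH11 (gene 1009, chromosome 16, 64943753 to 65123744), the osteoblast cadherin, was the most abundant. It had 65.4, 80.2 and 69.6 CPM with celastrol and 94.6, 83.7 and 82 CPM in controls. The groups did not overlap, but celastrol replicate 2 came close to the lowest control. CDH11 fell by 0.27 ± 0.083 on the log2 scale (adjusted p = 0.011). Leaving out celastrol replicate 1 or 3 raised the adjusted p to 0.0779 or 0.0501, and limma on log2(FPKM + 1) and log2(FPKM + 0.1) gave 0.0778 and 0.0752. CDH22, a cadherin known mainly from the brain, had 1.72, 1.49 and 1.47 CPM with celastrol and 2.75, 1.87 and 3.51 CPM in controls. No celastrol library reached the lowest control, although the controls were widely spread. The log2 fold change of CDH22 was -0.79 ± 0.29 (adjusted p = 0.0316). It missed the threshold without celastrol replicate 1 (0.0502), 2 (0.0703) or 3 (0.0823) and without control replicate 3 (0.173), all as adjusted p, as well as by limma-voom (0.051) and limma on both FPKM scales (0.0531 and 0.0653).

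CDH24 and CDH6 overlapped between groups. CDH24, a type II cadherin that binds catenins, had 24.6, 21.2 and 21.4 CPM with celastrol and 28.6, 23.5 and 24.6 CPM in controls (log2 fold change -0.19 ± 0.11, adjusted p = 0.154, 95% interval -0.41 to 0.036). CDH6, the K-cadherin gene of kidney, had 5.13, 7.87 and 6.21 CPM with celastrol and 6.89, 6.74 and 7.4 CPM in controls (-0.13 ± 0.17, adjusted p = 0.564, interval -0.50 to 0.24). The celastrol libraries of CDH6 bracketed all 3 controls. CDH5, CDH7, CDH9, CDH10, CDH12, CDH18 and CDH19 had at most 12 counts in any library, reached by CDH7. CDH5, the VE-cadherin gene of endothelium, had 0 counts in every celastrol library and 1, 0 and 0 counts in controls.

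Of the 3 other CDH genes, CDH23 (gene 64072, chromosome 10, 71396920 to 71815947) encodes the upper part of the tip link of inner-ear hair cells. It had 4.26, 3.06 and 4.26 CPM with celastrol and 14.8, 8.06 and 8.03 CPM in controls. All controls lay above all celastrol libraries, and control replicate 1 stood apart at the top. CDH23 fell by 1.41 ± 0.23 on the log2 scale (adjusted p = 0.000126), and the call held in all 15 alternatives that tested the gene. On the opposite strand 18.9% of CDH23 exon bases overlap C10orf105, which had 0 counts in every celastrol library and 2, 0 and 2 in controls. PCDH15, which forms the lower part of the tip link, had 11, 8 and 4 counts with celastrol and 7, 15 and 11 in controls (log2 fold change -0.57 ± 0.69, adjusted p = 0.521). CDH13 encodes T-cadherin, which has a lipid anchor and no cytoplasmic tail. It had 43.1, 46.6 and 45.7 CPM with celastrol and 55, 47.4 and 46.5 CPM in controls, which overlapped (-0.14 ± 0.085, adjusted p = 0.194, interval -0.32 to 0.042). CDH26 averaged 0.686 ± 0.333 CPM with celastrol and 0.844 ± 0.197 CPM in controls (SD, n = 3 each; -0.30 ± 0.49, adjusted p = 0.648).

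Of the 11 protocadherins outside the clusters, 8 were tested, 1 fell (12.5%, against 24.8% of all tested genes) and none rose (23.6% of all tested genes). Only PCDH1, PCDH7 and PCDH10 of these averaged 5 CPM or more, so the shares are not matched for level. PCDH1 (gene 5097, chromosome 5, 141853090 to 141878410), an adhesion protein of airway epithelium, had 8.29, 9.21 and 11 CPM with celastrol and 25, 33.3 and 39.6 CPM in controls. Every control lay far above every celastrol library. The log2 fold change was -1.78 ± 0.15, or 3.44-fold lower (adjusted p = 2.39e-07), with a 95% interval of -2.11 to -1.45 and a call in all 16 alternatives. PCDH7, a protocadherin that binds protein phosphatase 1 in its tail, had 9.21, 12 and 7.61 CPM with celastrol and 12.9, 12.2 and 12.3 CPM in controls. All celastrol libraries lay below all controls, by a small margin for celastrol replicate 2. PCDH7 did not pass the test (log2 fold change -0.37 ± 0.16, adjusted p = 0.0557), and was called in 7 of 16 alternatives, among them without celastrol replicate 2 (-0.57, adjusted p = 0.00783).

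PCDH10, which recruits an actin-regulating complex through its tail, had 3.54, 5.95 and 3.96 CPM with celastrol and 6.03, 4.95 and 6.13 CPM in controls. Celastrol replicate 2 lay among the controls. PCDH10 had a log2 fold change of -0.35 ± 0.21 (adjusted p = 0.177), and without celastrol replicate 2 it was -0.61 (adjusted p = 0.0296). The non-coding gene PCDH10-DT, which starts beside PCDH10, had 1, 11 and 14 counts with celastrol and 20, 21 and 21 in controls, and did not pass the test (log2 fold change -1.29 ± 0.67, adjusted p = 0.122). PCDH9 averaged 2.64 ± 1.03 CPM with celastrol and 2.04 ± 0.758 CPM in controls (SD, n = 3 each), and PCDH18 1.78 ± 0.907 CPM with celastrol and 2.28 ± 0.724 CPM in controls, with overlapping groups in both. PCDH19, a gene mutated in a form of epilepsy, and PCDH20 stayed under 1 CPM in every library, and neither passed the test (adjusted p = 0.564 and 0.324). Nearly all of the PCDH20 exon bases (95.8%) are also annotated to another gene on the same strand. PCDH8, PCDH11X and PCDH12 had at most 9 counts.

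FAT and DCHS proteins are giant cadherins that pair across cell boundaries. FAT4 is the receptor and DCHS1 its ligand in planar polarity and growth control. Of the 6 genes 4 were tested, 3 fell (75%, against 24.8% of all tested genes) and none rose (23.6% of all tested genes). DCHS1 (gene 8642, chromosome 11, 6621330 to 6655809) had 38.5, 46.2 and 36.6 CPM with celastrol and 77.9, 81.1 and 76.9 CPM in controls. The controls were close together and all lay far above the celastrol libraries. DCHS1 had a log2 fold change of -0.96 ± 0.087, or 1.94-fold lower (adjusted p = 1.11e-07), called in all 16 alternatives. Its receptor gene FAT4 (gene 79633, chromosome 4, 125314955 to 125492932) had 6.22, 6.63 and 7.18 CPM with celastrol and 8.39, 11.7 and 11.2 CPM in controls. The groups did not overlap, with control replicate 1 the nearest to the celastrol libraries. FAT4 fell by 0.64 ± 0.16 on the log2 scale (adjusted p = 0.00276), a call that limma on log2(FPKM + 0.1) did not make (adjusted p = 0.0663).

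FAT3, which shapes neuronal processes in mouse retina, had 1.37, 2.23 and 2.41 CPM with celastrol and 4.29, 4.08 and 3.22 CPM in controls. Every control exceeded every celastrol library. The log2 fold change of FAT3 was -0.95 ± 0.26 (adjusted p = 0.00525), and limma on log2(FPKM + 1) and log2(FPKM + 0.1) did not call it (adjusted p = 0.167 and 0.111). FAT1 (gene 2195, chromosome 4, 186587794 to 186726696), which acts on actin at the cell edge and on Hippo signalling, had 125, 127 and 121 CPM with celastrol and 122, 124 and 108 CPM in controls. The groups overlapped, and the log2 fold change was 0.076 ± 0.067 (adjusted p = 0.374) with an interval of -0.066 to 0.22. FAT2 and DCHS2 had at most 6 counts.

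The CELSR genes encode the vertebrate counterparts of the fly protein Flamingo, multi-pass cadherins at the core of planar polarity complexes. Of the 3 genes 2 fell (66.7%, against 24.8% of all tested genes) and none rose (23.6% of all tested genes). CELSR2 (gene 1952, chromosome 1, 109249539 to 109275751) had 40.1, 47.6 and 39.1 CPM with celastrol and 70.1, 82.3 and 72 CPM in controls. CELSR1 (gene 9620, chromosome 22, 46361174 to 46537620) had 39.4, 41 and 40.8 CPM with celastrol and 73.9, 61.5 and 57.3 CPM in controls. In both genes all controls lay above all celastrol libraries. CELSR2 fell by 0.82 ± 0.089 on the log2 scale (adjusted p = 8.9e-07) and CELSR1 by 0.67 ± 0.091 (adjusted p = 9.81e-06), each called in all 16 alternatives. CELSR3 had 24.5, 21.5 and 23.3 CPM with celastrol and 26.8, 21.1 and 21.6 CPM in controls, with the celastrol libraries inside the range of the controls. Its log2 fold change was -0.0061 ± 0.11 (adjusted p = 0.971, interval -0.24 to 0.23), and its sign turned under 7 alternatives.

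**Figure D2:**
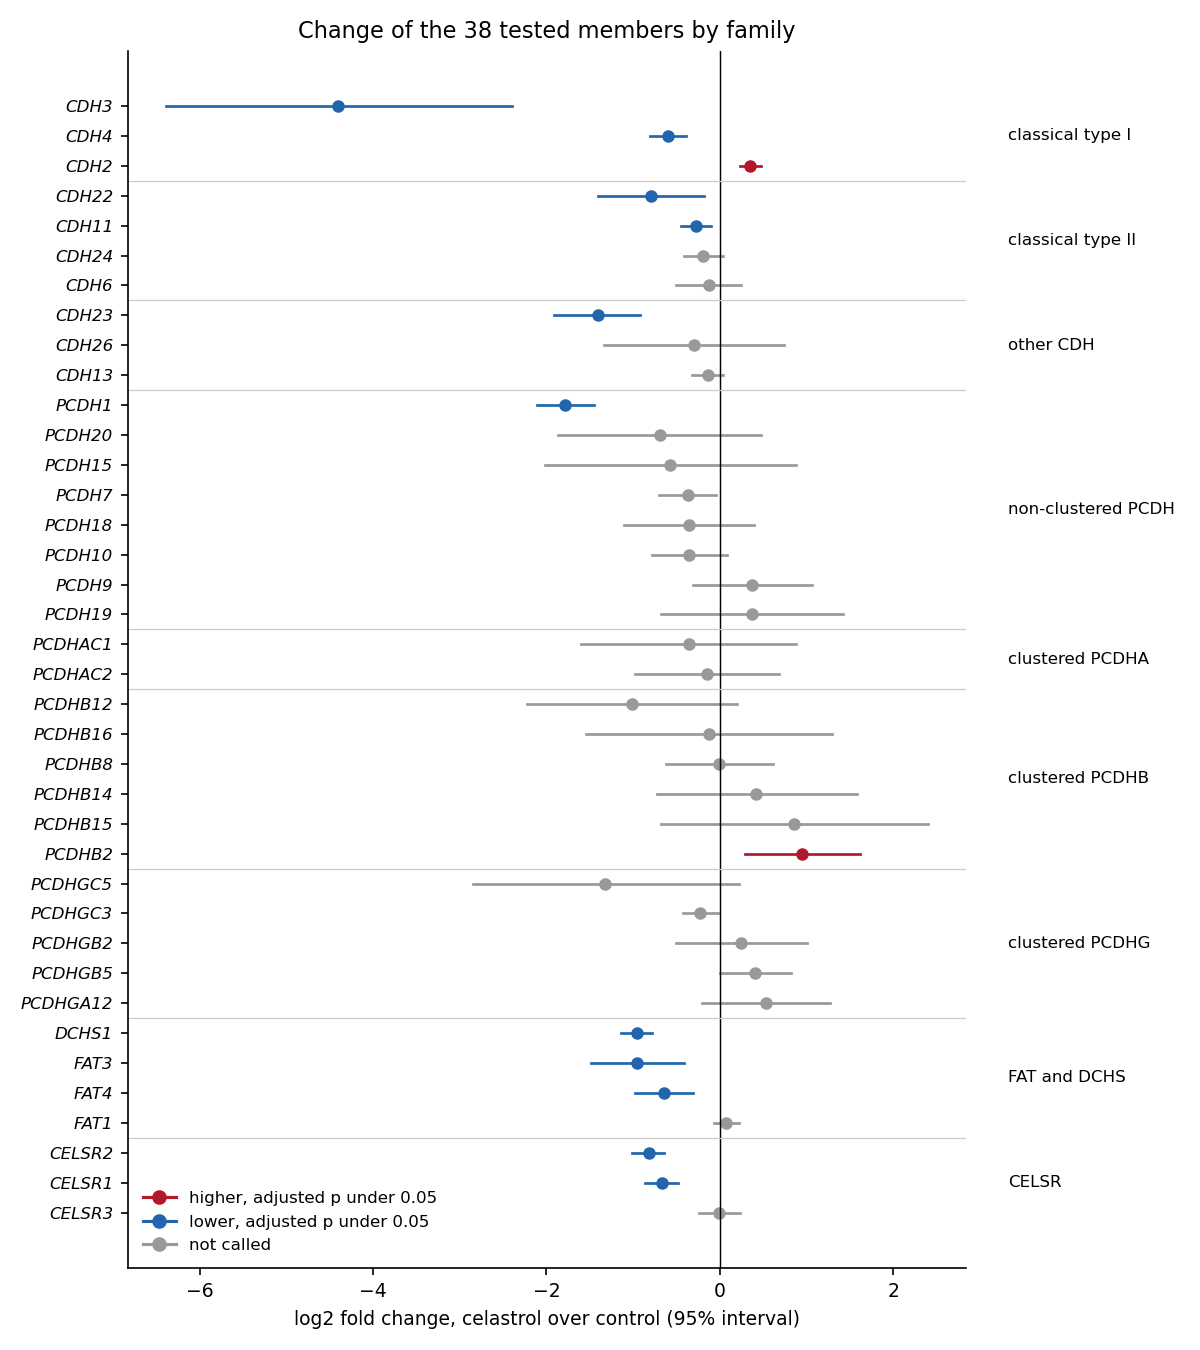
Log2 fold change of celastrol over control with its 95% interval for the 38 tested genes, grouped by family, with higher (red) and lower (blue) calls at an adjusted p under 0.05. Calls lie in the classical, CDH23, PCDH1, FAT, DCHS and CELSR rows on the lower side, and CDH2 and PCDHB2 are the 2 on the higher side, while the CDH3 estimate rests on 2 summed counts with celastrol.

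The clustered protocadherins lie in 3 adjoining arrays on chromosome 5. In neurons each cell picks a few alpha, beta and gamma genes by promoter choice, through CTCF and cohesin, and the C-type genes are used more constantly. Genes of the alpha array share their last exons with each other, as do those of the gamma array, so 41.3 to 56.6% of exon bases of each PCDHA gene and 27.6 to 64.4% of each PCDHG gene belong to other genes too. Reads in shared exons were counted in a way not given in the sources used here, and counts of single PCDHA and PCDHG genes are uncertain. The beta genes have 1 coding exon each and no such shared end.

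Of 15 PCDHB genes 6 were tested, 1 was higher with celastrol (16.7%, against 23.6% of all tested genes) and none was lower (24.8% of all tested genes). All 6 averaged under 5 CPM, whereas 11188 of the 15387 tested genes had a mean of at least 5 CPM. These shares are therefore not matched for level. The gene called was PCDHB2 (gene 56133, 141094615 to 141098703). It had 1.99, 3.24 and 2.51 CPM with celastrol and 1.74, 1.32 and 0.935 CPM in controls. Every celastrol library lay above every control, celastrol replicate 1 by a small margin. PCDHB2 had a log2 fold change of 0.95 ± 0.32 (adjusted p = 0.0183). Its adjusted p was 0.0986 without celastrol replicate 2 and 0.0746 without control replicate 3, and 15% of its exon bases overlap a gene on the opposite strand. PCDHB8 had 78, 88 and 72 counts with celastrol and 99, 75 and 57 in controls, with no difference beyond the spread (log2 fold change -0.0077 ± 0.29, adjusted p = 0.986). PCDHB12 had 18, 18 and 5 counts with celastrol and 38, 23 and 19 in controls, and PCDHB14 had 33, 27 and 51 with celastrol and 43, 7 and 30 in controls. PCDHB15 and PCDHB16 had at most 16 and 22 counts, and none of these 4 passed the test. The other 9 beta genes (PCDHB3 to PCDHB7, PCDHB9, PCDHB10, PCDHB11 and PCDHB13) had at most 20 counts, summed to 151 with celastrol and 69 in controls. Over the 15 beta genes the sums were 265, 333 and 323 counts with celastrol and 269, 199 and 202 in controls, so control replicate 1 lay within the celastrol range.

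The beta promoters share an element close to the start of transcription, shown here for the 6 tested genes to set the called PCDHB2 beside its neighbours. Capitals mark GTGGCGCTNC, a pattern of 10 bases with 1 free base. It is one of 9 patterns tied for the most PCDHB windows holding them on the gene's strand, and none of the tied patterns is in fewer of all genes with a window. It contains CGCT, a core known from clustered protocadherin promoters. Each line is 30 bases of RefSeq sequence on GRCh38.p14, plus strand.
PCDHB2 (chr5:141094546-141094575): gagacgcgggGTGGCGCTGCagccttagaa
PCDHB8 (chr5:141177779-141177808): aggacccgtgGTGGCGCTGCaggataagaa
PCDHB12 (chr5:141208645-141208674): gagacgcgtgGTGGCGCTGCaggataatat
PCDHB14 (chr5:141223265-141223294): gagacacatgGTGGCGCTACaggataagac
PCDHB15 (chr5:141245316-141245345): acaacgcatgGTGGCGCTGCaggctaaggc
PCDHB16 (chr5:141182312-141182341): agaacgcgtgGTGGCGCTGCaggttaagat
Searched on both strands, the pattern was in 12 of 13 PCDHB windows (92.3%), all but PCDHB3, and in 105 of 27305 genes (0.385%). It was chosen for being common in these windows, so the first share is a description. All 6 tested beta genes hold it, and so do 6 of the 7 that were not tested. In PCDHB2 it starts 59 bases before the start site, and in PCDHB8 1 base before it.

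Of 20 PCDHG genes 5 were tested and none was called, against 48.4% of all tested genes. Only PCDHGC3 of the 5 averaged 5 CPM or more, against 11188 of the 15387 tested genes, so this share is not matched for level. PCDHGC3 (gene 5098, 141475966 to 141512975), a C-type gene, held most of the gamma counts. It had 36.9, 45.8 and 36.6 CPM with celastrol and 48.9, 48.5 and 42.2 CPM in controls. Celastrol replicate 2 lay among the controls. The log2 fold change was -0.23 ± 0.098 (adjusted p = 0.0647), and it was called in 6 alternatives, among them without celastrol replicate 2 (-0.34, adjusted p = 0.011) and without control replicate 3 (-0.29, adjusted p = 0.0341).

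PCDHGB5 had 4.85, 4.66 and 4.97 CPM with celastrol and 4.11, 3.13 and 3.66 CPM in controls. Its groups did not overlap, but it did not pass the test (0.41 ± 0.19, adjusted p = 0.0884). PCDHGA12 had 74, 79 and 49 counts with celastrol and 58, 42 and 35 in controls (adjusted p = 0.226), and PCDHGB2 had 56, 42 and 64 with celastrol and 40, 52 and 39 in controls (adjusted p = 0.588). PCDHGC5 had 6, 18 and 2 counts with celastrol and 32, 24 and 7 in controls (adjusted p = 0.147, and 0.0407 without celastrol replicate 2).

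PCDHGC3 held 79.1, 82.3 and 79.8% of the gamma counts with celastrol and 84.9, 86.6 and 86% in controls. The shares did not overlap, at 80.4 ± 1.7% with celastrol and 85.8 ± 0.89% in controls (SD, n = 3 each; two-sided exact permutation p = 0.1, the smallest that 3 wells against 3 allow). The other 19 gamma genes summed to 391, 390 and 366 counts with celastrol and 335, 284 and 264 in controls, again without overlap. This split was looked at after the values of the single genes had been seen, and it rests on counts that the shared exons leave uncertain. The 15 gamma genes not tested (PCDHGA1, PCDHGA3 to PCDHGA11, PCDHGB3, PCDHGB4, PCDHGB6, PCDHGB7 and PCDHGC4) had at most 22 counts, reached by PCDHGA1.

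The gamma promoters were searched in the same way, and one of 2 tied patterns is marked in capitals as GNGCCGCTGT. It is shown for PCDHGC3 and PCDHGB5, the gamma genes with the most counts, and for PCDHGA1, which was not tested.
PCDHGC3 (chr5:141475882-141475911): gggactctgtGTGCCGCTGTcggccaatga
PCDHGB5 (chr5:141397865-141397894): ctgactctggGCGCCGCTGTtggccaaagt
PCDHGA1 (chr5:141330405-141330434): aggactgtggGCGCCGCTGTtcactaatct
These windows too are RefSeq sequence of the plus strand on GRCh38.p14. The pattern was in 10 of 18 PCDHG windows (55.6%), 2 of 3 tested and 8 of 15 not tested, and in 154 of 27305 genes (0.564%). It was chosen for being common in these windows, so the first share is a description. Outside the clusters it was in 1 of 24 windows, that of CDH2. CGCT alone was in all 37 clustered protocadherin windows, but also in 71.9% of all genes with a window.

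Of 7 PCDHA genes the C-type genes PCDHAC1 and PCDHAC2 were tested. PCDHAC2 had 68, 70 and 36 counts with celastrol and 55, 96 and 35 in controls (log2 fold change -0.15 ± 0.39, adjusted p = 0.777). PCDHAC1 had 14, 12 and 23 counts with celastrol and 28, 7 and 26 in controls (adjusted p = 0.644). Both overlapped between groups, and the other 5 alpha genes (PCDHA1, PCDHA2, PCDHA3, PCDHA11 and PCDHA12) had at most 11 counts. Summed over the array, the libraries held 98, 98 and 77 alpha counts with celastrol and 90, 115 and 71 in controls.

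**Figure D3:**
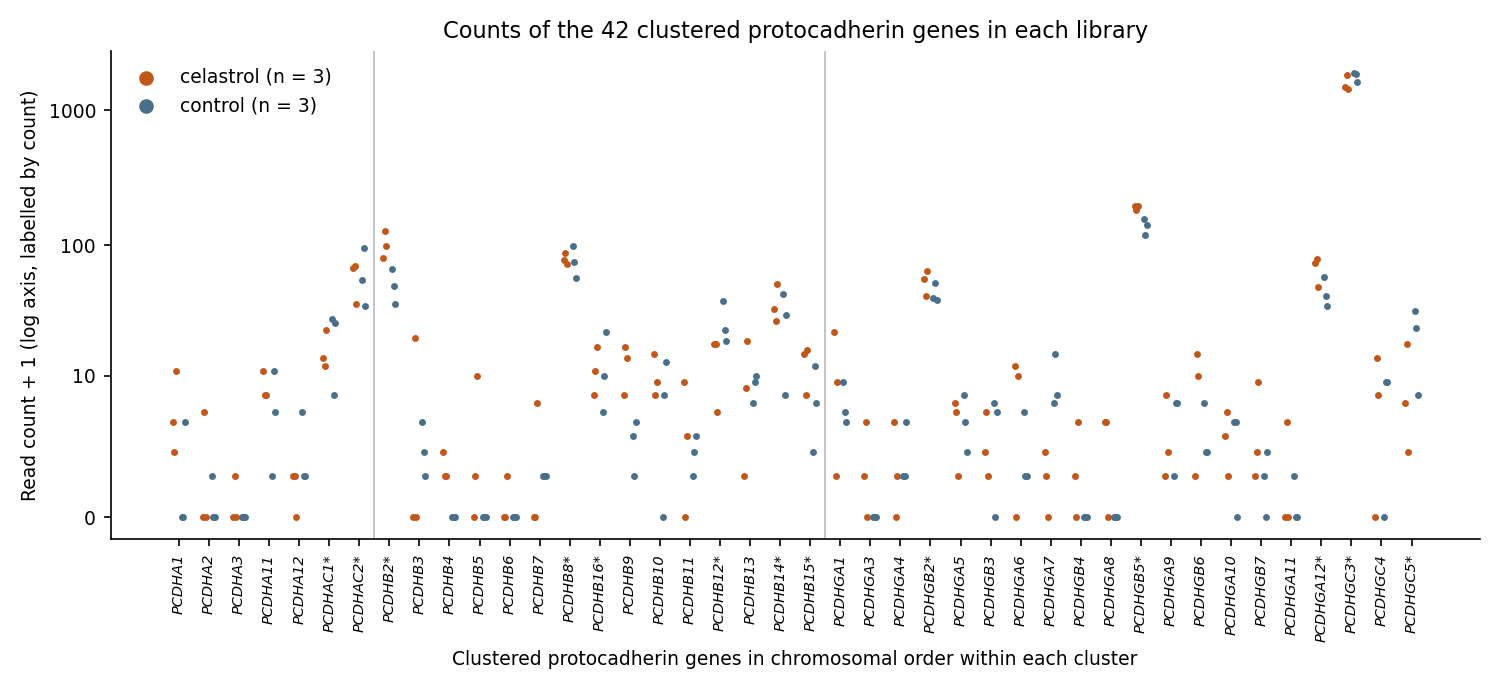
Read counts (count + 1 on a log axis) of the 42 clustered protocadherin genes in each celastrol (orange, n = 3) and control (blue, n = 3) library, in chromosomal order within the alpha, beta and gamma arrays, with asterisks on the 13 tested genes. PCDHGC3 stands above all others and PCDHGB5 follows, and most other genes lie at or under 22 counts. Among tested genes, PCDHGB5 and PCDHB2 have all celastrol points above all control points, and PCDHB12 has all of them below. Some untested genes with few counts also separate, such as PCDHB9 (celastrol above) and PCDHGA7 (celastrol below).

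Levels of different genes were compared per length, in the authors' FPKM, which scales counts by gene length and library total. CDH2 ranked first in both groups, at 41.6 ± 0.00383 FPKM with celastrol and 31.7 ± 1.75 FPKM in controls (SD, n = 3 each). CDH11 came next, at 9.65 ± 1.03 FPKM with celastrol and 11.3 ± 0.957 FPKM in controls. Below it the order differed between groups. With celastrol FAT1 and PCDHGC3 followed without separation from each other, then CDH4 and CDH13. In controls PCDHGC3, CDH4, FAT1, DCHS1 and CELSR2 followed in that order, and no neighbours among these 5 were separated. DCHS1 ranked 9 with celastrol and 6 in controls, and PCDH1 ranked 13 with celastrol and 11 in controls.

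CDH2 held 40.3, 37.9 and 40.6% of the summed FPKM of the 81 genes with celastrol and 28.1, 28.3 and 28.5% in controls. The shares did not overlap, and the means of 39.6 ± 1.5% with celastrol and 28.3 ± 0.23% in controls differed with a two-sided exact permutation p of 0.1, the smallest possible. The sum itself was 103, 110 and 103 FPKM with celastrol and 119, 111 and 105 FPKM in controls, which overlapped (exact permutation p = 0.2). FAT1 held 8.12, 7.78 and 7.85% with celastrol and 6.7, 7.26 and 6.64% in controls, while DCHS1 held 3.54, 3.99 and 3.35% with celastrol and 6.04, 6.73 and 6.67% in controls. CDH2 over CDH4 in FPKM was 7.43 ± 0.22 with celastrol and 3.88 ± 0.41 in controls, and FAT1 over DCHS1 was 2.19 ± 0.21 with celastrol and 1.06 ± 0.059 in controls (SD, n = 3 each; exact permutation p = 0.1 for each). CDH2 over CDH11 was 4.34 ± 0.44 with celastrol and 2.8 ± 0.092 in controls. These ratios restate, in the same libraries, the changes of single genes given above, so they are descriptions and no separate result. Celastrol replicate 2 had the lowest CDH2 share of the celastrol libraries, and in 10 of the 17 genes at 5 CPM or more it was the highest of them. Control replicate 1 was the highest control in 10 of the 17.

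**Figure D4:**
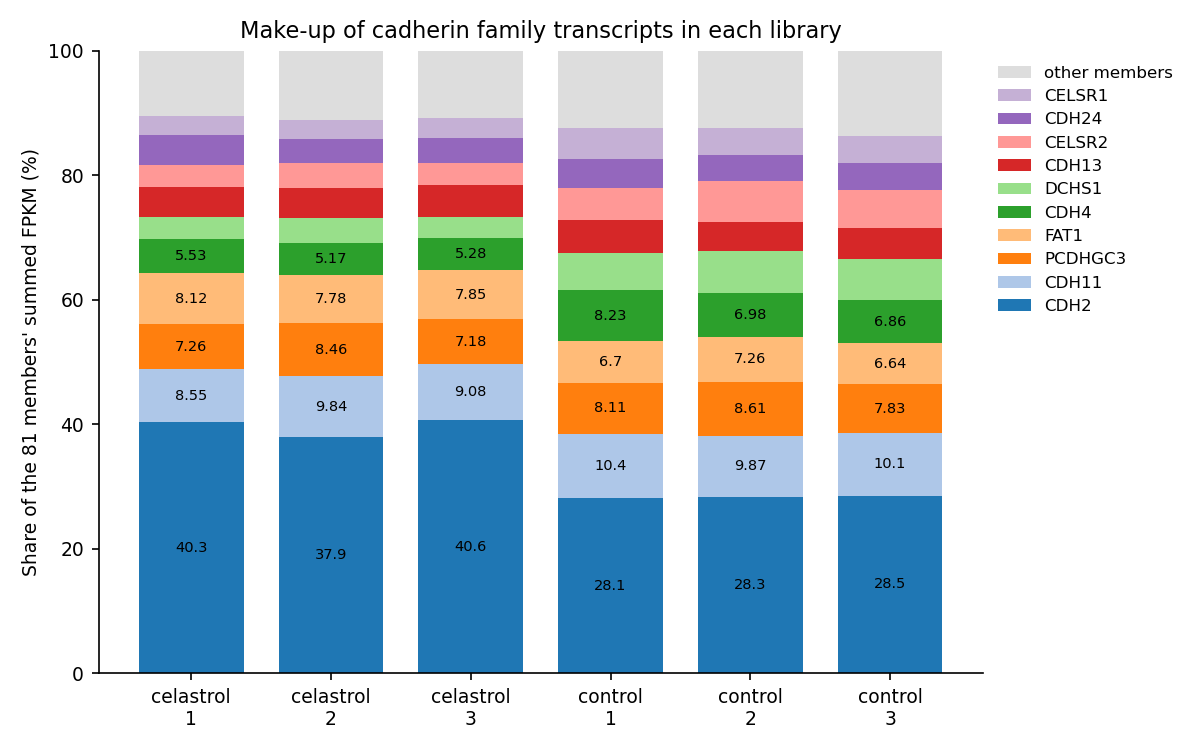
Share (%) of the summed FPKM of all 81 genes held by the 10 most abundant and by all others, for each celastrol library (left 3 bars) and control library (right 3 bars). The CDH2 part is 37.9 to 40.6% with celastrol and 28.1 to 28.5% in controls, and the DCHS1, CELSR1, CELSR2 and CDH4 parts are narrower with celastrol.

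The promoter windows of tested and untested genes differed in base composition. The 24 tested genes with a window had a median GC content of 57.5% and an observed over expected CpG ratio of 0.645. The 37 untested genes with a window had 42% and 0.519. Most of the untested windows belong to cluster genes, which share sequence, so these medians are a description.

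The proteins that link cadherins to the cell interior were looked at through a list of 20 catenins and junction adaptors. Of 17 tested, 3 rose (17.6%, against 23.6% of all tested genes) and 9 fell (52.9%, against 24.8%), and the median log2 fold change was -0.29, against -0.00024 over all tested genes. Beta-catenin (CTNNB1), the link to alpha-catenin, had 442, 445 and 443 CPM with celastrol and 436, 422 and 420 CPM in controls, and did not pass the test (log2 fold change 0.058 ± 0.052, adjusted p = 0.378). Alpha-catenin (CTNNA1) fell, from 369, 402 and 420 CPM in controls to 328, 322 and 323 CPM with celastrol (-0.29 ± 0.059, adjusted p = 0.000504). The p120-catenin gene CTNND1 did not pass the test (0.26 ± 0.22, adjusted p = 0.355). JUP, which encodes plakoglobin, had 9.86, 10.4 and 10.4 CPM with celastrol and 20.3, 24.2 and 24.9 CPM in controls (log2 fold change -1.18 ± 0.12, adjusted p = 4.02e-07). The junctional adhesion genes NECTIN1 (-0.69 ± 0.086, adjusted p = 4.06e-06) and NECTIN2 (-0.58 ± 0.076, adjusted p = 6.95e-06) fell, as did CTNNBIP1, an inhibitor of beta-catenin binding to TCF factors (-0.61 ± 0.1, adjusted p = 7.58e-05). The LIM protein gene AJUBA was 1.7-fold higher (0.76 ± 0.15, adjusted p = 0.00245, and 0.0672 without control replicate 1). NECTIN3 (0.28 ± 0.075, adjusted p = 0.00463) and the p120 relative PKP4 (0.21 ± 0.067, adjusted p = 0.0136) rose. PKP4 missed the threshold on leaving out celastrol replicate 1 (adjusted p of 0.058) or 3 (0.0846) or control replicate 3 (0.0525).

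Of 12 genes of desmosomal cadherins and plaque, 6 were tested, 2 fell (33.3%, against 24.8% of all tested genes) and none rose (23.6% of all tested genes). DSP, which encodes desmoplakin, had 51, 62 and 57.1 CPM with celastrol and 88.4, 100 and 94.7 CPM in controls (log2 fold change -0.74 ± 0.081, adjusted p = 9.51e-07). The plaque gene PKP2 fell less (-0.36 ± 0.12, adjusted p = 0.0225) and lost its call without celastrol replicate 1 (0.0704) or 2 (0.0857). The desmosomal cadherin DSG2 had 123, 135 and 123 CPM with celastrol and 133, 131 and 119 CPM in controls (adjusted p = 0.943). Among 9 other members of the cadherin superfamily, 6 were tested, and 4 fell (66.7%, against 24.8% of all tested genes) while none rose (23.6%). CLSTN3 was one of them with -0.43 ± 0.087 (adjusted p = 0.000578).

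The cadherin-shedding protease ADAM10, the gamma-secretase genes that cut the remaining stub, and endocytosis genes formed a list of 10. Of these 5 rose (50%, against 23.6% of all tested genes) and 2 fell (20%, against 24.8%), with a median log2 fold change of 0.20. APH1A, a gamma-secretase subunit, had 285, 282 and 291 CPM with celastrol and 216, 205 and 210 CPM in controls (log2 fold change 0.44 ± 0.056, adjusted p = 5.02e-06). PSENEN, another subunit, rose by 0.38 ± 0.092 (adjusted p = 0.00255). ADAM10 rose by 0.21 ± 0.069 (adjusted p = 0.0178) and was not called without celastrol replicate 1 (0.0509), celastrol replicate 2 (0.0679) or control replicate 3 (0.094). The metalloprotease ADAM15 fell by 0.63 ± 0.098 (adjusted p = 3.94e-05) and the recycling GTPase RAB11A by 0.37 ± 0.069 (adjusted p = 0.000281).

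The list of FAT and planar polarity partners held 11 genes, of which 1 rose (9.09%, against 23.6% of all tested genes) and 5 fell (45.5%, against 24.8%). The called share of 54.5% lay near the 48.4% of all tested genes. PRICKLE2, a cytoplasmic polarity protein, had 5.95, 6.78 and 5.61 CPM with celastrol and 18.5, 18.9 and 18.4 CPM in controls. Its controls lay far above its celastrol libraries (log2 fold change -1.60 ± 0.13, adjusted p = 3.52e-08). FJX1, the relative of the fly kinase Four-jointed that modifies Fat and Dachsous cadherin repeats, fell by 0.39 ± 0.1 (adjusted p = 0.00488). LIX1L, a relative of the fly Fat-binding protein Lowfat, fell by 0.48 ± 0.071 (adjusted p = 2.51e-05), and the cytoplasmic transducer DVL1 by 0.45 ± 0.067 (adjusted p = 2.46e-05). The receptor FZD6 rose by 0.29 ± 0.077 (adjusted p = 0.00534). VANGL1 and VANGL2, the transmembrane partners of CELSR proteins, overlapped between groups and were not called (adjusted p = 0.324 and 0.266).

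The list of 13 regulators of clustered protocadherins also held the kinase genes PTK2 and PTK2B, which are not regulators of these genes. Of the 13, 6 rose (46.2%, against 23.6% of all tested genes) and 4 fell (30.8%, against 24.8%). PTK2 and PTK2B were among the 4 that fell. STAG1, a cohesin subunit, had 89.3, 93.8 and 87.5 CPM with celastrol and 54.3, 40.2 and 38.6 CPM in controls (log2 fold change 1.02 ± 0.11, adjusted p = 1.41e-06). SMCHD1, which silences clustered protocadherin genes in mouse, rose by 0.55 ± 0.076 (adjusted p = 1.35e-05). The cohesin genes STAG2 (0.38 ± 0.065, adjusted p = 0.000112) and SMC1A (0.35 ± 0.065, adjusted p = 0.000224) rose too. CTCF, the insulator protein, had 101, 101 and 114 CPM with celastrol and 80.6, 84.6 and 82.8 CPM in controls (0.35 ± 0.07, adjusted p = 0.000515). SETDB1, a histone methyltransferase, fell by 0.26 ± 0.071 (adjusted p = 0.00514). DNMT3B, the methyltransferase of protocadherin promoters in mouse, fell by 0.26 ± 0.083 (adjusted p = 0.0149) and lost its call without celastrol replicate 3 (0.0705) or control replicate 2 (0.0708). The kinase gene PTK2, which gamma protocadherins inhibit, was called lower by a narrow margin (-0.18 ± 0.072, adjusted p = 0.0481, overlapping groups). That call was lost without celastrol replicate 1 (0.211) or 3 (0.188), without control replicate 2 (0.216) or 3 (0.0548), and with library size as the only scaling (-0.14, adjusted p = 0.128).

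Of 8 transcription factors known to repress CDH1, 1 rose (12.5%, against 23.6% of all tested genes) and 5 fell (62.5%, against 24.8%), in cells where CDH1 itself had 1 count in 6 libraries. SNAI2, which encodes Slug, had 18.8, 20.7 and 22 CPM with celastrol and 37.1, 41.4 and 40.9 CPM in controls (log2 fold change -0.96 ± 0.096, adjusted p = 3.43e-07). TWIST2 (-0.63 ± 0.09, adjusted p = 1.6e-05), TWIST1 (-0.55 ± 0.12, adjusted p = 0.000916) and ZEB1 (-0.42 ± 0.084, adjusted p = 0.000455) were lower as well. ZEB2 was called higher at 0.24 ± 0.086 (adjusted p = 0.0298). The ZEB2 call was lost without celastrol replicate 1 (0.068), 2 (0.104) or 3 (0.0748) and without control replicate 2 (0.0705) or 3 (0.0581).

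**Figure D5:**
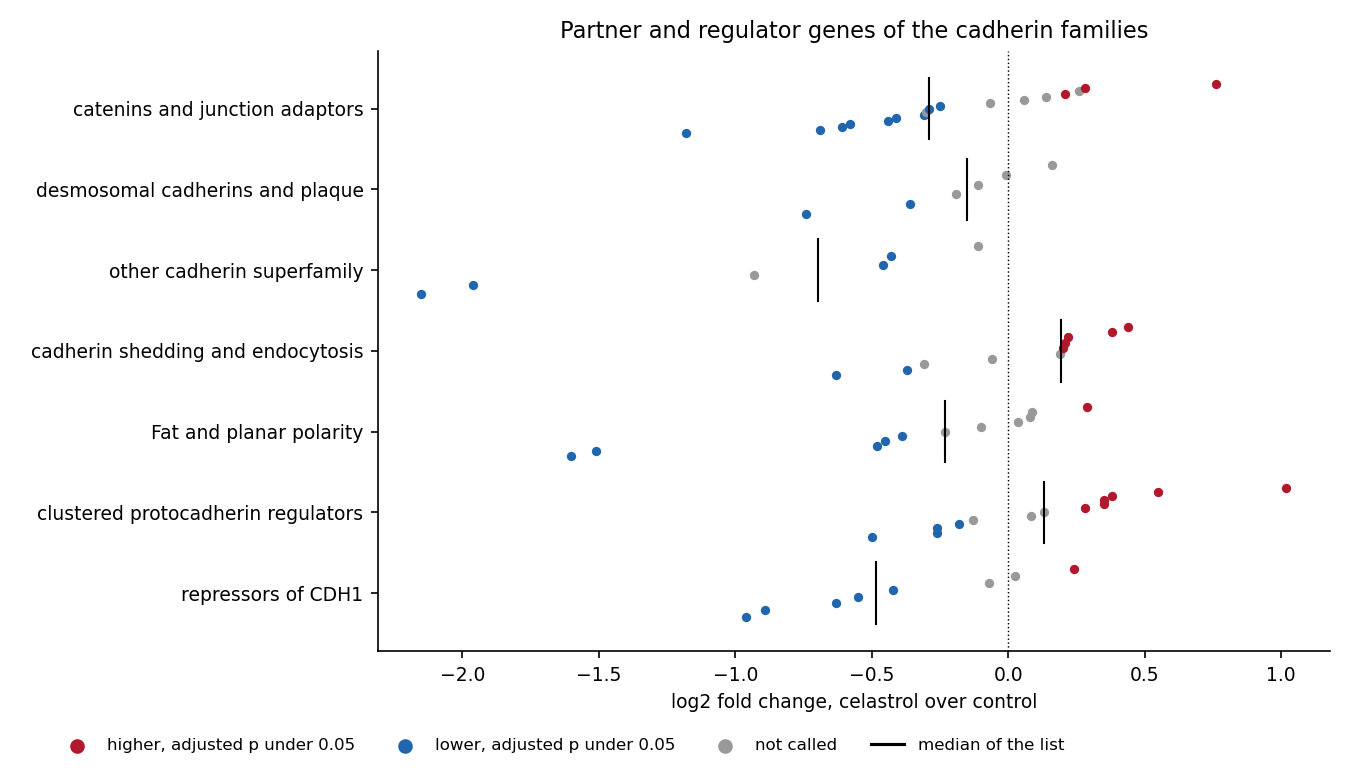
Log2 fold change of celastrol over control for the tested genes of the 7 partner and regulator lists, coloured by call at an adjusted p under 0.05, with the median of each list as a black bar. The median is -0.29 for catenins and junction adaptors and 0.20 for shedding and endocytosis genes, and PRICKLE2 and STAG1 lie farthest from 0 in the polarity and regulator lists.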

How the data were processed

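RNA was measured in 6 poly(A) libraries of 143B cells, made with a strand-marking dUTP protocol, per the labels' protocols. The submitters' processing notes name build hg38, HISAT2 2.2.1, StringTie 2.1.6, cutadapt 1.9, edgeR and DESeq2. Their roles, the annotation, the counting settings and any use of strand are things not given in the sources used here. Deposited values are raw read counts per gene (whole numbers) and FPKM, which the authors scaled by gene length and library total. Dividing the 2 tables returned 1 gene length across libraries (within 1e-06) for all 20198 genes checked.

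Genes were kept with filterByExpr and scaled by TMM in edgeR 4.0.16 (R 4.3.3), and celastrol was compared with control by its quasi-likelihood test, with Benjamini-Hochberg adjustment over all 15387 tested genes. The procedure was tested on simulated data. Standard errors are the absolute log2 fold change over the root of F. Single library values were compared by two-sided exact permutation tests in SciPy 1.17.1. Alternatives used DESeq2 1.42.0, limma 3.58.1 on log2(FPKM + 1) and log2(FPKM + 0.1), other scalings and filters, a replicate block and left-out libraries. Intervals of fold changes come from the edgeR fit and include the spread between wells. The interval of the CDH3 count ratio and the floors cover counting error only, and the labels name no molecular identifiers. No replicates were duplicates: pairs within a group gave chi-square values of 6.49 to 20.9 per degree of freedom.

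The members and lists were chosen with earlier results of these data known. All tested members are named. Those with a mean of at least 5 CPM, or called with a group mean of at least 1 CPM, get every library's value. From each partner list the text names called genes with a mean of at least 10 CPM, up to 4 per direction, and 1 gene under that rule is not reported here. CDH1, CDH3, CDH5, CTNNB1, CTCF, DSG2, VANGL1, VANGL2, PCDH10-DT and C10orf105, the counts of low cluster genes and the motif searches were added after their values or sequences were seen. The same holds for CTNNA1, CTNND1, PTK2B, ALPL, COL1A1, SPARC, KRT18, CLDN4, EPCAM and KDR. Coordinates and promoter windows are RefSeq's on GRCh38.p14, with windows for 61 of the 81 genes, and exon sharing was computed from GENCODE annotation of the same assembly.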

Additional observations from a re-analysis of the deposited data

How the results depend on the processing

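Of 13 called genes of the family, 7 (CDH2, CDH4, CDH23, PCDH1, DCHS1, CELSR1 and CELSR2) kept their call in every alternative that tested them, and in 202 comparisons 18 calls were lost and none reversed. The number called higher was 1 with a filter of 10 CPM, under which fewer genes are tested, and 1 to 3 when a library was left out. The number called lower was 7 by limma on log2(FPKM + 1) and 7 on log2(FPKM + 0.1), settings that change the test, the scaling and the pseudocount together, and 9 to 14 when a library was left out. The median log2 fold change of -0.29 was -0.075 and -0.13 under those settings, -0.40 without celastrol replicate 2 and control replicate 1, and -0.33 to -0.22 without a single library. With the replicate block 2 genes of the family were higher and 13 lower, and over all genes 3831 were higher and 3928 lower. Libraries that share a number hardly deviated together (correlations of 0.0582, 0.0549 and 0.0341), so the numbers were not taken to pair them. Each celastrol library did correlate best with the control of its own number, a hint from the data and not from the design. Library size alone gave 4170 higher and 3382 lower genes over the whole table, against 3634 and 3815 with TMM, and moved the median of all genes by 0.041 or less.

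All signs that turned belong to genes that were not called, and the cause was not tested. CELSR3 was 0.035 with library size alone, 0.00042 by limma-voom, 0.026 and 0.04 on the FPKM scales, and -0.07 to 0.16 over the fits with libraries left out. PCDHB8 was 0.033 with library size alone, 0.023 by limma-voom, 0.019 and 0.054 on the FPKM scales, 0.018 with the replicate block, and -0.19 to 0.21 with libraries left out. PCDHB16 was 0.018 by limma-voom and -0.51 to 0.58 with libraries left out. The other turns came only with libraries left out, where PCDHAC1 ran from -0.77 to 0.11, PCDHAC2 from -0.44 to 0.32, PCDHB14 from -0.025 to 1.13, CDH26 from -0.70 to 0.01 and CDH6 from -0.32 to 0.0037. Depth limits the 43 untested genes, none of which had more than 22 counts in a library.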
